A study of Mus musculus with 19 samples.

Results

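The AP-1 family is described here through 8 genes, Jun, Junb, Jund, Fos, Fosb, Fosl1, Fosl2 and Atf3, each found by its symbol in the deposited expression table (JUN, JUNB, JUND, FOS, FOSB, FOSL1, FOSL2 and ATF3 there), out of 19486 genes in all. Their values were followed through 19 libraries of mouse liver tumor RNA in 5 groups. MYC_Twist1_OFF, MYC_Recur and MYC_OFF had 3 libraries each, and MYC_Twist1_HCC and MYC_HCC had 5 each. HCC is hepatocellular carcinoma, the tissue named for every sample, and all samples share the organ liver. The study compared metastatic with non-metastatic liver cancer driven by the oncogene MYC, and the group names are used as the labels write them. The labels state no strain, age, transgene promoter, agent or time for any group, and what OFF and Recur stand for is not spelled out. The libraries of MYC_Twist1_HCC and MYC_HCC are labelled as re-analysed from an earlier data set, so in any comparison of either with MYC_Twist1_OFF, MYC_Recur or MYC_OFF the group and the data set cannot be told apart. Separate animals are not recorded for the replicates, and each p-value therefore reflects only how far these libraries spread, which may be technical.

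AP-1 is a dimer of basic leucine zipper proteins. Jun proteins pair with each other or with Fos or ATF proteins, and Fos proteins need a Jun partner to bind DNA. The dimers bind the TPA response element (TGACTCA) or, mainly when an ATF protein takes part, the cAMP response element (TGACGTCA). MAP kinases raise both the transcription of these genes and the activity of their proteins, and many of the genes are immediate early genes, switched on within minutes by growth factors or stress. In mouse liver, Jun is needed for regeneration and for the early growth of chemically induced tumors.

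On the GRCm38 assembly, in the GENCODE annotation, Jun lies on chromosome 4, Junb and Jund on chromosome 8, Fos on chromosome 12, Fosb on chromosome 7, Fosl1 on chromosome 19, Fosl2 on chromosome 5 and Atf3 on chromosome 1. Promoter sequence, the 250 bases before the start, was found in RefSeq (GRCm38.p6) for 7 members; Fosl1 had no entry. The start is that of RefSeq, and for Jund, Fosl2 and Atf3 it lies farther from the 5′ end of the GENCODE gene than the length of the window. The window of Jun is shown because Jun was called most often of the members once the interaction described below is counted. In the comparisons between groups Jund was called as often as Jun, and its window is not shown. The windows of Junb and Atf3 are shown for comparison, since Junb was called less often and Atf3 never. Each is written 5′ to 3′ on the strand of the gene, the minus strand in all 3.
Jun, chr4:95052223-95052472: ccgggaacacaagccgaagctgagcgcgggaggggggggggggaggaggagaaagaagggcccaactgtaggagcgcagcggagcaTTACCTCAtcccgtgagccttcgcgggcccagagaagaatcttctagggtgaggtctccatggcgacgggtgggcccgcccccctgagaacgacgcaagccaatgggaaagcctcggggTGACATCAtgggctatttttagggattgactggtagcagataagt
Junb, chr8:84978749-84978998: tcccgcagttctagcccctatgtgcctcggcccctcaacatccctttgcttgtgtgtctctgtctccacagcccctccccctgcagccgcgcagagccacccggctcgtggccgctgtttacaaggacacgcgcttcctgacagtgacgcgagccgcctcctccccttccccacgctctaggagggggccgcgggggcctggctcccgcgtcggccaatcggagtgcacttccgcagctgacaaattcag
Atf3, chr1:191183334-191183583: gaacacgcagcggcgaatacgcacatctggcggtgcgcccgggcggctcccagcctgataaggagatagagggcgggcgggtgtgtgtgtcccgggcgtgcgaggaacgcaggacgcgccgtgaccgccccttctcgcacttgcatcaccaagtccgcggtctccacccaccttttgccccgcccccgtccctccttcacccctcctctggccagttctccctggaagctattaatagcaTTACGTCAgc
Capitals mark exact matches to 3 variants of the AP-1 and ATF elements, TTACCTCA, TGACATCA and TTACGTCA, which were searched after the windows had been read. In Jun, TTACCTCA begins 164 bases and TGACATCA 45 bases before the start, and these letters are those of the distal and proximal AP-1-like elements known in the Jun promoter. In Atf3, TTACGTCA begins 10 bases before the start. On either strand, TTACCTCA was found in 0.728%, TGACATCA in 2.93% and TTACGTCA in 0.447% of all 32851 promoter windows. No member's window held TGACTCA or its reverse complement TGAGTCA (4.46% of all windows), TGACGTCA (1.55%), the E-box CACGTG (6.02%) or a CArG box, the serum response element core (1.47%). No match says only that these letters are not in these windows.

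The authors deposited 1 normalized signal value per gene and library, with a formula and a sequencing depth that the sources used here do not give. Values summed to between 507868 and 690310 per library, and a value of 0 is given as listed. The labels were checked first on the genes they name. Myc averaged 39.7 ± 6.65 in MYC_Twist1_OFF, 156 ± 3.14 in MYC_Recur, 45.7 ± 13.1 in MYC_OFF, 125 ± 19.3 in MYC_Twist1_HCC and 160 ± 19.2 in MYC_HCC (SD, n = 3, 3, 3, 5 and 5). Twist1 was at most 0.27 in any library, a value in MYC_HCC, so its level does not show the difference that the Twist1 labels name; whether reads of a transgene were counted is not known, and the groups are named as labelled. All 10 hepatocyte markers in the table were detected in every group, and their summed value was between 1356 and 1503 in MYC_Twist1_OFF, 5110 and 6806 in MYC_Recur, 1329 and 2033 in MYC_OFF, 3673 and 5792 in MYC_Twist1_HCC, and 6386 and 12625 in MYC_HCC. Within MYC_HCC, libraries 4 and 5 stand apart: 10 stellate cell and fibroblast markers summed to 141 and 76.6 there, against 32.2 to 35.6 in libraries 1 to 3. Between MYC_Twist1_OFF and MYC_Twist1_HCC, these stromal sums were apart (32.9 to 39.2 in MYC_Twist1_OFF and 23.3 to 29.4 in MYC_Twist1_HCC), as were sums of 9 endothelial markers (67.1 to 116 in MYC_Twist1_OFF and 12.1 to 22.9 in MYC_Twist1_HCC). Of the other marker lists, those of macrophages and Kupffer cells (12 genes) and B cells (5) overlapped between each OFF group and its HCC group. Sums of 6 cholangiocyte and progenitor markers overlapped between MYC_OFF and MYC_HCC, but were 35.5 to 47.2 in MYC_Twist1_OFF and 48.2 to 62.9 in MYC_Twist1_HCC. Sums of 10 neutrophil and monocyte markers were 61.5 to 154 in MYC_Twist1_OFF, 39.7 to 60.6 in MYC_Recur, 43.5 to 285 in MYC_OFF, 35.9 to 64.2 in MYC_Twist1_HCC and 35.9 to 79.6 in MYC_HCC. Sums of 11 T and NK cell markers were 10.1 or more in every OFF library and at most 9.73 elsewhere, and sums of 4 erythroid markers were at most 147 in OFF libraries and at least 134 elsewhere.

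**Figure D1:**
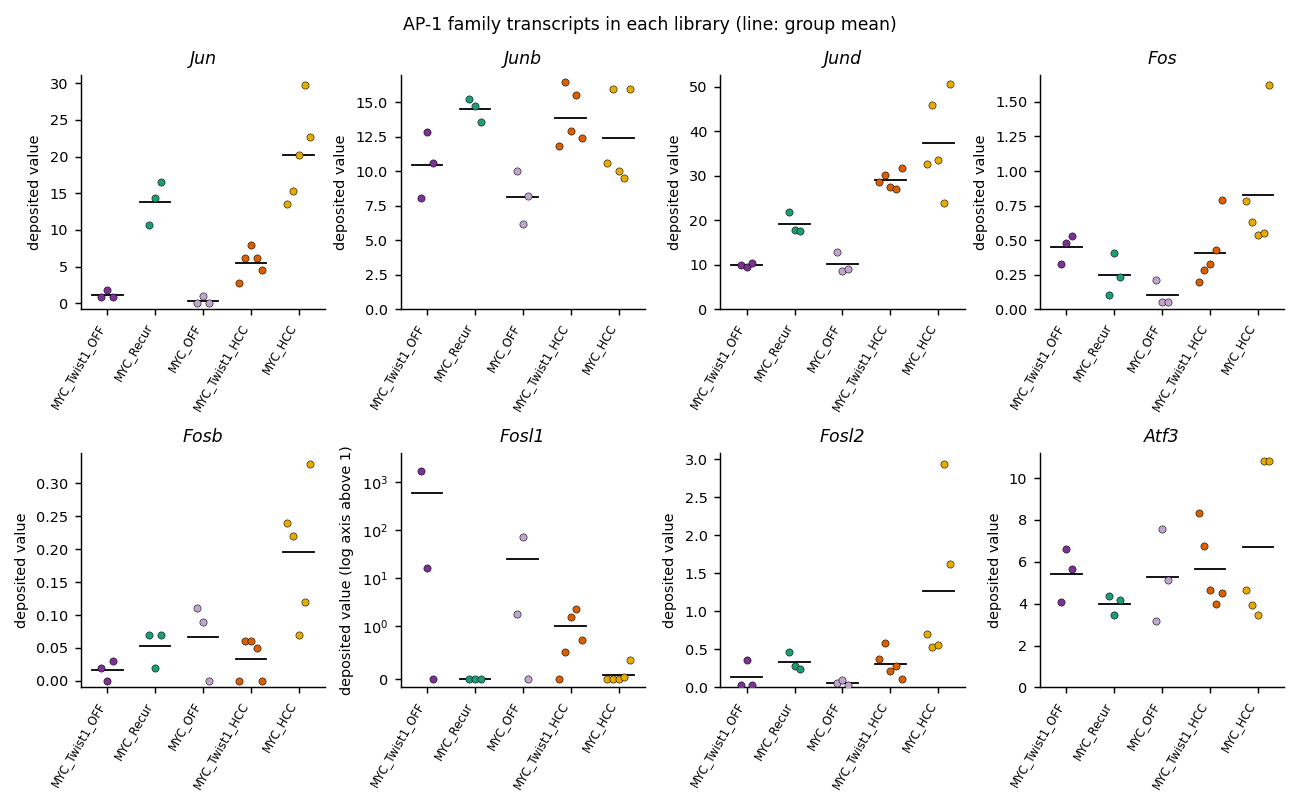
Deposited value (vertical axis, normalized signal; log axis above 1 for Fosl1) of each AP-1 gene in every library (points) of the 5 groups, with the group mean as a line. Jun was between 0 and 1.78 in the OFF groups, between 2.79 and 7.91 in MYC_Twist1_HCC and between 13.52 and 29.7 in MYC_HCC, while Junb stayed between 6.19 and 16.49 in all 19 libraries.

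Jun, Junb, Jund, Fosl1 and Atf3 reached a value of 1 in at least 3 libraries and were tested with limma on log2(value + 1), among 13253 genes in all; Fos, Fosb and Fosl2 did not. Changes are called at a Benjamini-Hochberg adjusted p under 0.05, and fold changes on this scale understate those of low genes.

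Jun, the founding member and the strongest transcriptional activator of the Jun proteins, was lower in MYC_Twist1_HCC than in MYC_HCC. Its values were 2.79, 6.14, 7.91, 6.23 and 4.57 in MYC_Twist1_HCC, against 13.52, 15.29, 20.2, 29.7 and 22.63 in MYC_HCC. The groups did not overlap, and the means were 5.53 ± 1.93 in MYC_Twist1_HCC and 20.3 ± 6.42 in MYC_HCC (SD, n = 5 each). The log2 fold change was -1.71 (SE 0.270, limma adjusted p = 0.00131), against a median of -0.01 over all genes tested. Jun was the only one of the 5 tested members called here, where 6.43% of all tested genes were called and 3.23% were called lower. Without libraries 4 and 5 of MYC_HCC the log2 fold change was -1.45 (adjusted p = 0.0189), and the call held in all 31 alternative analyses, with values between -1.88 and -1.25. Hepatocyte marker sums also did not overlap between these groups, nor did stellate cell and fibroblast sums (23.3 to 29.4 in MYC_Twist1_HCC and 32.2 to 141 in MYC_HCC) or erythroid sums (134 to 250 in MYC_Twist1_HCC and 268 to 360 in MYC_HCC); their part in the Jun difference was not tested. In a bulk tumor, fewer cells of a type and less RNA per cell cannot be told apart.

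Junb and Jund, the other Jun proteins, did not pass the test between these groups. Junb, which can hold back Jun-driven proliferation, differed by 0.17 on the log2 scale (95% interval -0.23 to 0.57, limma adjusted p = 0.617), and Jund by -0.31 (95% interval -0.70 to 0.08, adjusted p = 0.311). Atf3, a stress-induced member that often acts as a repressor, differed by -0.12 (95% interval -0.75 to 0.51, adjusted p = 0.835). These intervals do not show that the levels were the same.

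Ratios within a library, which a single factor per library cannot move, are given as a description with no test. Jun per Junb was 0.236 to 0.612 in MYC_Twist1_HCC and 0.957 to 3.13 in MYC_HCC. It was 0.0851 to 0.139 in MYC_Twist1_OFF, 0.700 to 1.22 in MYC_Recur and 0 to 0.153 in MYC_OFF. Jund per Junb was 1.74 to 2.55 in MYC_Twist1_HCC and 2.51 to 3.35 in MYC_HCC, against 0.736 to 1.24 in MYC_Twist1_OFF, 1.21 to 1.44 in MYC_Recur and 1.09 to 1.39 in MYC_OFF. The ratios are compared between groups only, since deposited values of different genes need not be on one scale per length. In MYC_HCC libraries 1, 4 and 5, low values lay on steps that depend on transcript length, and in the other 16 libraries such steps were not found. Whether all libraries share one scale per length is therefore not known, and the ratios may not be comparable between groups. The same limit holds for fold changes of single genes against MYC_HCC, and no alternative left out libraries 1, 4 and 5 together. Within MYC_HCC, Jun per Junb was 1.27, 3.13 and 1.42 in libraries 1, 4 and 5 and 0.957 and 2.02 in libraries 2 and 3, which overlap.

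**Figure D2:**
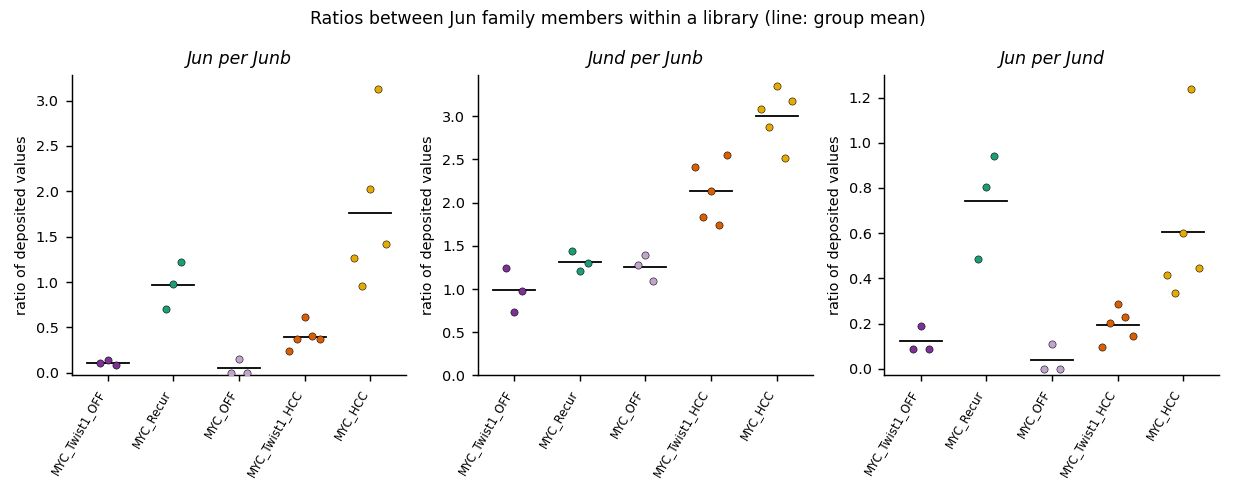
Ratio of deposited values (vertical axis, no unit) of Jun to Junb, Jund to Junb and Jun to Jund within each library (points), with the group mean as a line. For Jun per Junb the libraries of MYC_Recur (0.700 to 1.22) and MYC_HCC (0.957 to 3.13) lie above all of the other 3 groups, the highest of which is 0.612 in MYC_Twist1_HCC.

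Jun had its largest difference in MYC_OFF against MYC_HCC. Jun was listed at 0, 0.95 and 0 in MYC_OFF, below every library of MYC_HCC. The log2 fold change was -4.04 (SE 0.312, limma adjusted p = 6.40e-08), a value that depends on the pseudocount because of the 0 entries; it was -6.48 with a pseudocount of 0.1 and -2.22 with a pseudocount of 5, called both times. Jund was 12.83, 8.59 and 8.94 in MYC_OFF, against 32.68, 45.88, 33.58, 23.88 and 50.7 in MYC_HCC, again with no overlap. Its log2 fold change was -1.76 (SE 0.210, adjusted p = 2.01e-06). Junb was 10.05, 6.19 and 8.21 in MYC_OFF, against 10.61, 15.97, 10.01, 9.5 and 15.94 in MYC_HCC, so that the highest MYC_OFF library overlaps the MYC_HCC libraries.

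Junb was called lower, with a log2 fold change of -0.54 (SE 0.217, limma adjusted p = 0.0402), but relative to the median of all genes, which was -0.38, it was -0.16. After median of ratios scaling it was -0.002 (adjusted p = 0.994), and without libraries 4 and 5 of MYC_HCC it was -0.52 (adjusted p = 0.0575). The call was also lost without MYC_HCC library 2 or 5 or MYC_OFF library 2 or 3, with values between -0.56 and -0.38. In all, 3 of the 5 tested members were called, all lower, where 58.3% of all genes were called and 39.4% were called lower. Hepatocyte marker sums were lower in the OFF groups as well, as given above; their part in the AP-1 values was not tested. Junb shares 351 bases with Prdx2 on the opposite strand, and whether counting used strand is not given; Prdx2 was 69.0 to 82.0 in MYC_OFF and 188 to 316 in MYC_HCC. Jun, Jund and Atf3 each overlap a noncoding gene on the other strand (Junos, Gm11175 and Gm24748), with the same limit.

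In MYC_Twist1_OFF against MYC_Twist1_HCC, Jun and Jund were again lower. Jun was 0.88, 1.78 and 0.90 in MYC_Twist1_OFF, below all 5 values of MYC_Twist1_HCC, with a log2 fold change of -1.55 (SE 0.312, limma adjusted p = 6.45e-04). Jund was 9.96, 9.44 and 10.37 in MYC_Twist1_OFF, against 28.55, 30.13, 27.53, 27.04 and 31.73 in MYC_Twist1_HCC, with no overlap. The log2 fold change of Jund was -1.46 (SE 0.210, adjusted p = 3.29e-05). Junb averaged 10.5 ± 2.40 in MYC_Twist1_OFF and 13.8 ± 2.04 in MYC_Twist1_HCC (SD, n = 3 and 5) and did not pass (-0.38, adjusted p = 0.157; up to 0.07 under another scaling). Marker sums of hepatocyte, stromal, endothelial, cholangiocyte, T and NK cell and erythroid RNA were apart between these groups as given above. Their part was not tested, and a sum can rest on a few genes. Of 6 tested endothelial markers, 2 were called higher and 1 lower, and of 4 cholangiocyte markers 1 each way. Of 9 stromal markers 2 were called higher and none lower, with a median of -0.149, beside -0.324 for all genes. Of 7 T and NK cell markers 3 were higher, of 10 hepatocyte markers 5 were lower, and of 2 erythroid markers 1 was lower. With Fosl1, 3 of the 5 tested members were called, where 46.6% of all genes were called, 33.5% lower and 13.1% higher.

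Fosl1, which encodes Fra-1, a Fos protein without a strong activation domain that is linked to invasion of carcinoma cells, was uneven within groups. Its values were 1705.17, 16.21 and 0 in MYC_Twist1_OFF, against 0, 0.52, 1.51, 2.23 and 0.73 in MYC_Twist1_HCC. It was 1.74, 71.78 and 0 in MYC_OFF, at most 0.37 in MYC_HCC and listed at 0 in all 3 libraries of MYC_Recur. The groups overlap through the MYC_Twist1_OFF library at 0, while the other 2 MYC_Twist1_OFF libraries were above every MYC_Twist1_HCC library. Fosl1 was called higher in MYC_Twist1_OFF than in MYC_Twist1_HCC (log2 fold change 4.06, SE 1.56, limma adjusted p = 0.0397). The call was lost without MYC_Twist1_OFF library 1 (1.17, adjusted p = 0.448), without MYC_Twist1_OFF library 2 (4.48, adjusted p = 0.0596), without library 1, 2, 3 or 5 of MYC_Twist1_HCC (3.84 to 4.18), without libraries 4 and 5 of MYC_HCC (4.06, adjusted p = 0.0513), and in 4 other alternatives. Fosl1 was not called in MYC_OFF against MYC_HCC (2.44, adjusted p = 0.186) until MYC_Twist1_OFF library 1, which adds to the shared spread, was left out (2.44, adjusted p = 0.0451). Fosl1 shares 2767 bases with Ccdc85b on the opposite strand, whose value was between 1.39 and 8.23 in all libraries.

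**Figure D3:**
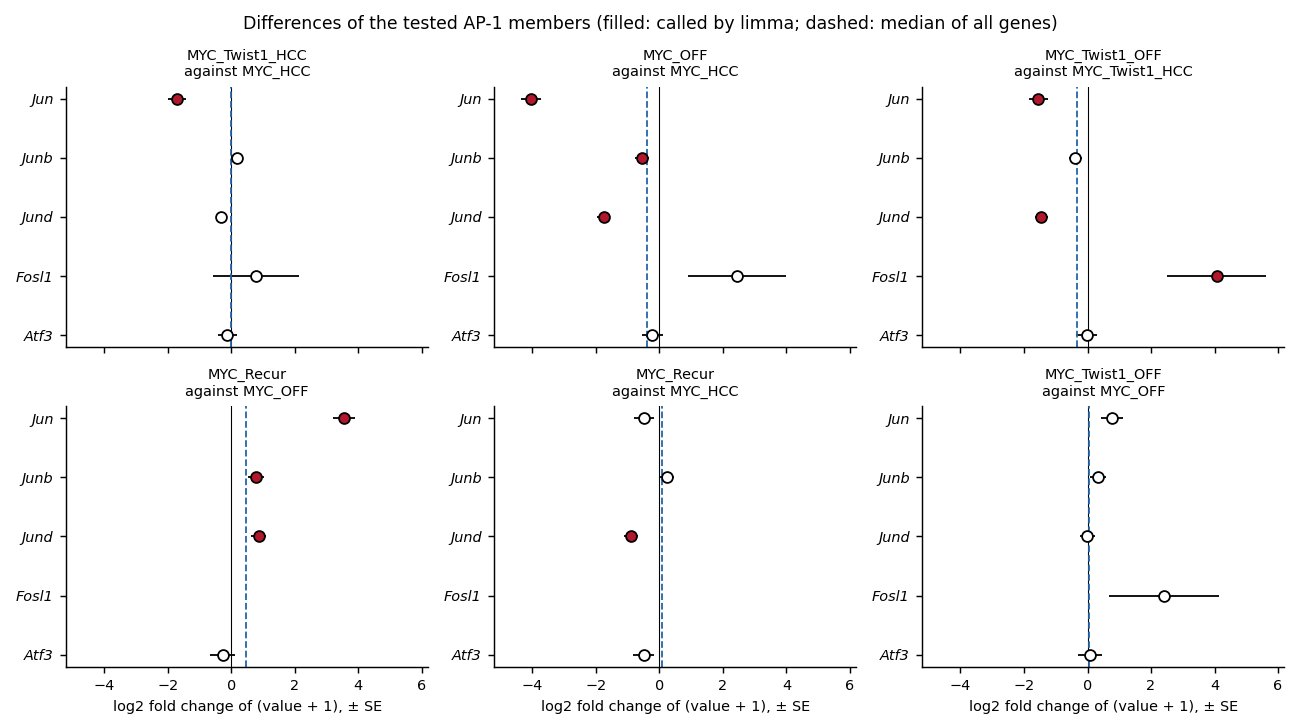
Log2 fold change of (value + 1), with its standard error as a bar, for the 5 tested AP-1 genes in 6 comparisons; filled points passed limma's test at an adjusted p under 0.05, and the dashed line is the median of all 13253 genes. Jun is filled in 4 panels, from -4.04 in MYC_OFF against MYC_HCC to 3.55 in MYC_Recur against MYC_OFF, and no point is filled in MYC_Twist1_OFF against MYC_OFF; Fosl1 is not drawn for MYC_Recur, where it is listed at 0.

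MYC_Recur differed from MYC_OFF in the opposite direction. Jun was 10.67, 14.3 and 16.52 in MYC_Recur, all above the highest MYC_OFF value of 0.95 (log2 fold change 3.55, SE 0.348, limma adjusted p = 1.16e-06). Jund was 21.89, 17.77 and 17.57 in MYC_Recur, all above the highest MYC_OFF value of 12.83 (0.87, SE 0.235, adjusted p = 0.00544). Junb was 15.25, 14.7 and 13.56 in MYC_Recur, all above the highest MYC_OFF value of 10.05 (0.78, SE 0.242, adjusted p = 0.0126). These 3 of 5 tested members were called higher, where 49.4% of all genes were called, 37.5% higher and 12% lower, and the median of all genes was 0.45. Only Jun kept its call under each scaling. After median of ratios scaling Jund was 0.21 (adjusted p = 0.424) and Junb was 0.14 (adjusted p = 0.616), and without MYC_OFF library 2 Junb was 0.62 (adjusted p = 0.0663). Neither group is labelled as re-analysed. Prdx2, which overlaps Junb as given above, was 184 to 238 in MYC_Recur and 69.0 to 82.0 in MYC_OFF. Hepatocyte, cholangiocyte and erythroid marker sums were higher and T and NK cell sums lower in MYC_Recur than in MYC_OFF, with no overlap. Endothelial sums were 7.23 to 12.95 in MYC_Recur and 34.3 to 89.9 in MYC_OFF, and B cell sums were 43.2 to 60.4 in MYC_Recur and 13.2 to 29.2 in MYC_OFF. Of 6 tested endothelial markers, 1 was called higher and 2 lower. Calls were 1 each way of 4 cholangiocyte markers and 1 higher of 2 B cell markers. The part of these cells in the AP-1 values was not tested.

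Against MYC_HCC, MYC_Recur had lower Jund, and no other member was called. Jund averaged 19.1 ± 2.44 in MYC_Recur and 37.3 ± 10.8 in MYC_HCC (SD, n = 3 and 5), and its log2 fold change was -0.89 (SE 0.210, limma adjusted p = 0.0107). The groups did not overlap; the highest MYC_Recur value was 21.89 and the lowest MYC_HCC value 23.88. Jun averaged 13.8 ± 2.95 in MYC_Recur and 20.3 ± 6.42 in MYC_HCC and did not pass (-0.49, 95% interval -1.16 to 0.18, adjusted p = 0.353). That is 1 of 5 members, where 10.8% of all genes were called and 3.93% were called lower. The Jund call was lost without MYC_Recur library 3 (-0.84, adjusted p = 0.0517). Of the 9 marker lists, only the endothelial sums were apart, at 7.23 to 12.95 in MYC_Recur and 13.2 to 84.7 in MYC_HCC. Their part in the Jund value was not tested.

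Between MYC_Twist1_OFF and MYC_OFF, limma called none of the 5 tested members and 1 gene in all, 0.00755% of those tested. With no difference at all, a share of 0.05 would have an unadjusted p under 0.05, and 2.49%, or 330 genes, did. Jun, at 0.88, 1.78 and 0.90 in MYC_Twist1_OFF and 0, 0.95 and 0 in MYC_OFF, was among these (log2 fold change 0.78, 95% interval 0.04 to 1.53, unadjusted p = 0.0374). The difference of MYC_Twist1_OFF to MYC_Twist1_HCC in Jun, less that of MYC_OFF to MYC_HCC, was 2.49 (SE 0.441, limma adjusted p = 0.0335), with 0.0981% of all genes called in this interaction. That call was lost in 15 of 31 alternatives, among them leaving out libraries 4 and 5 of MYC_HCC together (2.23, adjusted p = 0.0969). It was also lost without MYC_HCC library 3 or 5, MYC_Twist1_HCC library 1 or 5, MYC_OFF library 3, or any 1 library of MYC_Twist1_OFF, with values between 2.31 and 2.59.

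Jun thus ranked from MYC_HCC through MYC_Recur, MYC_Twist1_HCC and MYC_Twist1_OFF down to MYC_OFF. Of the neighbours in that order, the difference between MYC_Recur and MYC_HCC did not pass the test, nor did that between MYC_Twist1_OFF and MYC_OFF; MYC_Recur and MYC_Twist1_HCC were not tested against each other, and their libraries did not overlap. Jund ranked MYC_HCC, MYC_Twist1_HCC, MYC_Recur, MYC_OFF and MYC_Twist1_OFF, and its first and last pairs of neighbours did not pass the test. For Jund too, MYC_Twist1_HCC and MYC_Recur were not tested against each other, and their libraries did not overlap. Jund was called between MYC_Recur and MYC_OFF as deposited, but not after median of ratios scaling (0.21, limma adjusted p = 0.424).

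The Fos genes other than Fosl1 were low throughout. Fos, the immediate early partner of Jun, was 0.33 to 0.53 in MYC_Twist1_OFF, 0.10 to 0.41 in MYC_Recur, 0.05 to 0.21 in MYC_OFF, 0.20 to 0.79 in MYC_Twist1_HCC and 0.54 to 1.62 in MYC_HCC. Fosl2, which encodes Fra-2, was at most 0.58 outside MYC_HCC, where it was 0.70, 0.53, 0.56, 2.94 and 1.63. Fosb was at most 0.33 in any library. With the filter on low values removed, 6 of the 8 members were called in MYC_OFF against MYC_HCC, where 42.5% of 19324 genes were called. Among them were Fos (-0.70, limma adjusted p = 0.00222), Fosl2 (-0.99, adjusted p = 0.00339) and Fosb (-0.16, adjusted p = 0.0298), each lower. In MYC_Twist1_HCC against MYC_HCC, 2 members were then called, Jun and Fosb (-0.21, adjusted p = 0.0304), where 3.6% of all genes were called. Values this low may rest on few reads, and the depth behind them is unknown.

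Atf3 passed in no comparison. It was 4.06, 6.6 and 5.64 in MYC_Twist1_OFF, 4.38, 3.44 and 4.18 in MYC_Recur, 3.17, 7.56 and 5.14 in MYC_OFF, 8.33, 6.74, 4.67, 3.97 and 4.53 in MYC_Twist1_HCC, and 4.64, 3.94, 3.44, 10.79 and 10.82 in MYC_HCC. All groups overlap, and the 2 highest values are those of MYC_HCC libraries 4 and 5. The same libraries had the highest Egr1, an immediate early gene (8.38 and 7.39, against 2.06 to 2.68 in MYC_HCC libraries 1 to 3), and the highest Dusp1, a phosphatase of MAP kinases (10.5 and 5.17, against 2.16 to 3.56). Egr1 and Dusp1 come from longer lists, and the other immediate early genes were not compared in this way. Junb did not follow, at 9.5 and 15.94 in MYC_HCC libraries 4 and 5 and 10.01 to 15.97 in libraries 1 to 3. Fos was 0.55 in library 4 and 1.62 in library 5, against 0.54 to 0.78 in libraries 1 to 3. Libraries 4 and 5 also had the highest stromal marker sums of MYC_HCC. The part of those cells in the Atf3, Fosl2 and Egr1 values was not tested.

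The genes around AP-1 were described with 6 lists, by how many were called as deposited and after the other scalings, since median of ratios scaling moved the median of all genes in MYC_OFF against MYC_HCC to 0.079, where it was -0.378 as deposited. In MYC_Twist1_HCC against MYC_HCC few were called, where 3.2% of all tested genes were called higher and 3.23% lower as deposited, and 3.23% higher and 3.27% lower after median of ratios scaling; counts of 1 or 2 genes in lists of this size are near these shares. The MAP kinase inputs had 2 of 23 higher, Map3k1, a kinase upstream of the Jun kinases (1.29, limma adjusted p = 0.00876), and Map2k4, which phosphorylates them (0.66, adjusted p = 0.0463), and none lower. The immediate early genes had 2 of 28 higher, Klf2, a flow-responsive transcription factor of endothelium (2.11, limma adjusted p = 0.0158), and the kinase Sgk1 (0.96, adjusted p = 0.0446), and 1 lower, Btg2, an antiproliferative gene (-0.82, adjusted p = 0.0422). The other bZIP partners had 1 of 13 higher, the small Maf protein gene Mafk (0.58, adjusted p = 0.0411), and 1 lower, Nfe2l1 (-0.83, adjusted p = 0.0405), the target genes 1 of 23 lower, Tgfb1 (-0.87, adjusted p = 0.0306), and the negative regulators (16 tested) and ATF4 and ATF3 stress genes (28 tested) none. After median of ratios scaling, 1 MAP kinase input was higher, and 1 immediate early gene was higher and none lower. The median of the AP-1 targets was -0.27, beside -0.01 for all genes.

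In MYC_OFF against MYC_HCC, 13 of 23 MAP kinase inputs were called lower and 2 higher as deposited, and 8 lower and 4 higher after median of ratios scaling. Of all tested genes, 39.4% were called lower and 18.9% higher as deposited, and 26.2% lower and 29.6% higher after median of ratios scaling, and the counts of each list in this comparison are to be read against these shares. Map3k1 was higher, at 40.65, 52.46 and 91.73 in MYC_OFF and 7.44, 3.7, 3.93, 6.08 and 8.85 in MYC_HCC (log2 fold change 3.14, limma adjusted p = 3.38e-07). Srf, the serum response factor that drives Fos and Egr1, was lower (-1.10, adjusted p = 6.65e-05). Both kept their calls under each scaling.

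Of 28 tested immediate early genes, 15 were lower and 6 higher in MYC_OFF against MYC_HCC, but 7 lower and 7 higher after median of ratios scaling, close to the shares of 26.2% and 29.6% for all genes. Mcl1, a survival factor of the BCL2 family, was 9.52 ± 3.96 in MYC_OFF and 67.0 ± 14.8 in MYC_HCC (SD, n = 3 and 5; -2.73, limma adjusted p = 2.06e-07). Klf2 was 91.93, 195.09 and 131.96 in MYC_OFF and between 0.68 and 11.51 in MYC_HCC (4.48, adjusted p = 3.05e-06), and Socs3, an inhibitor of cytokine signalling, was also higher (2.81, adjusted p = 1.36e-05). The endothelial marker sum was 34.3 to 89.9 in MYC_OFF and 13.2 to 84.7 in MYC_HCC; its part in the Klf2 value was not tested. Of the 13 partners, 6 were lower as deposited, led by Nfe2l1, a stress-responsive bZIP factor (-2.85, adjusted p = 2.23e-07), and 2 lower and 4 higher after that scaling.

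Among the 16 negative regulators, 7 were lower and 2 higher in MYC_OFF against MYC_HCC, and 6 lower and 2 higher after median of ratios scaling; as deposited this is near the 39.4% lower and 18.9% higher of all genes. Hdac3, a histone deacetylase of the NCoR complex, was lower (-3.37, limma adjusted p = 1.50e-05), while Dusp6, an ERK phosphatase, was higher (1.91, adjusted p = 7.90e-05). The ATF4 and ATF3 stress genes had 17 of 28 lower and none higher, and 12 lower and 3 higher after that scaling. They were led by Cebpb, a bZIP factor (-1.97, adjusted p = 5.48e-07), and Asns, asparagine synthetase (-2.48, adjusted p = 3.07e-06). Of 23 tested AP-1 targets, 7 were lower and 3 higher, and 5 each way after that scaling. The largest change among them was Krt18, a simple-epithelium keratin, at 1980 ± 102 in MYC_OFF and 131 ± 70.9 in MYC_HCC (SD, n = 3 and 5; 4.09, adjusted p = 5.03e-06).

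MYC_Twist1_OFF against MYC_Twist1_HCC had calls in the same 6 lists. Lower and higher were 11 and 2 of 23 MAP kinase inputs, 6 and 6 of 28 immediate early genes, 6 and 0 of 13 partners, 6 and 2 of 16 negative regulators, 14 and 0 of 28 stress genes, and 5 and 2 of 23 targets, where 33.5% of all genes were lower and 13.1% higher. After median of ratios scaling they were 7 and 2, 3 and 7, 2 and 1, 4 and 2, 4 and 1, and 0 and 5, where 20.2% of all genes were lower and 22.2% higher. In MYC_Recur against MYC_OFF, 15 of 28 stress genes were higher and 1 lower as deposited, and 7 higher and 1 lower after that scaling. Higher and lower were 8 and 2 of the MAP kinase inputs, 9 and 4 of the immediate early genes, 4 and 0 of the partners, 4 and 2 of the negative regulators and 5 and 4 of the targets, and after that scaling 4 and 4, 3 and 7, 4 and 2, 4 and 3, and 2 and 7. Of all genes, 37.5% were higher and 12% lower as deposited, and 20.1% higher and 23% lower after that scaling, so that the 7 of 28 stress genes are near the share of all genes. Map3k1 was 20.6 ± 8.46 in MYC_Recur and 61.6 ± 26.7 in MYC_OFF (SD, n = 3 each; -1.54, limma adjusted p = 0.00135). No gene of the 6 lists was called in MYC_Twist1_OFF against MYC_OFF or in the interaction.

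**Figure D4:**
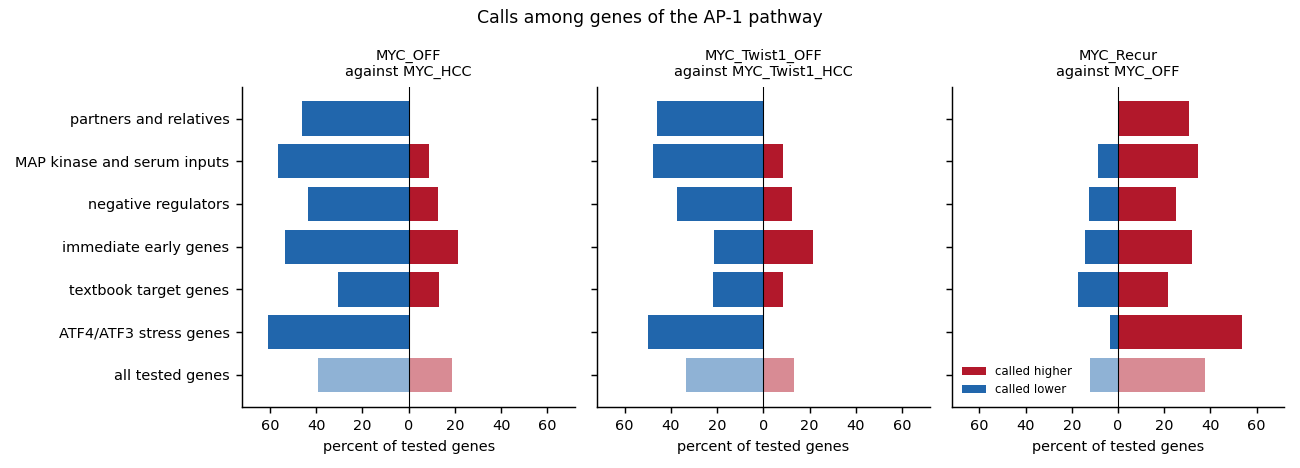
Percent of tested genes (horizontal axis) called higher (right, red) or lower (left, blue) by limma in values as deposited, for 6 lists around AP-1 and, in pale, for all 13253 tested genes, in 3 comparisons. For all genes the bars are 18.9% higher and 39.4% lower in MYC_OFF against MYC_HCC; the stress genes have no higher bar in the first pair of panels.

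Genes whose log2 values followed a member most closely over the 19 libraries were named by correlation, as a description, since the libraries share their groups. Jun was followed by Xrcc4 (r = 0.957), Nabp2 (0.951) and Sgpl1 (0.950), which fell to 0.520, 0.406 and 0.277 once group means were removed. Jund was followed by Nacc1 (0.967), Ppig (0.958) and Mta2 (0.955), and Junb by Ubr7 (0.892), Zscan25 (0.882) and Aggf1 (0.880). Atf3 was followed by Etv6 (0.820), Tnfrsf1a (0.808) and Colec11 (0.759), which were at 0.805, 0.779 and 0.776 without group means. Fosl1, which was high in few libraries, was followed by Zmynd12 (0.954), Invs (0.852) and Dzank1 (0.845).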

How the data were processed

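Per the labels' protocols, RNA was taken from frozen mouse liver tumors and sequenced as libraries made with BGI methods. The authors deposited normalized signal values, 1 column per sample and 2 decimals. The submitters' processing notes name mm10, STAR, featureCounts, DESeq2, Trimmomatic and Picard; the sources used here give no versions, annotation or formula. As deposited, the values are no raw counts, so no count test was run, although one had been planned, and no counting error can be given. In 3 MYC_HCC libraries (1, 4 and 5), low values multiplied by transcript length clustered on steps (clustering 0.540, 0.560 and 0.498 on a scale of 0 to 1), and in the other libraries at most 0.207.

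Of 19511 rows, 25 with bare numbers as symbols were left out, which left 19486 genes. Genes with a value of at least 1 in at least 3 libraries were tested (13253). limma-trend (limma 3.58.1, R 4.3.3) was run on log2(value + 1), with 5 group means in 1 fit and 14 residual degrees of freedom. Two-sided p-values were adjusted by the Benjamini-Hochberg method within each of 7 comparisons. The step was tested on simulated data. Alternatives changed the pseudocount, filter, scaling, groups in the fit, replicate block, variance moderation or libraries. Named genes are the members, called list members with the smallest p, and the 3 genes most correlated with each tested member. One gene that this rule names is not reported here. The 8 members, the 6 pathway lists and the 9 marker lists were chosen with earlier results of these data known. Capital symbols of the table are written in mouse style. Sequences are from RefSeq.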

Additional observations from a re-analysis of the deposited data

Results flagged for a closer look

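Among 18 combinations of a gene (the 8 members and Myc) and a group of 5 libraries checked for a library far from the others, 2 stood out. Chance alone gives about 1 in 20 for values that spread continuously, and 2 of 18 does not stand clear of that rate. Both outliers were in MYC_HCC library 5. Fos was 1.62 there, and the gap to the next library was a share of 0.778 of the group's range. Fosl1 was 0.37 there, against 0.05 or less in the other MYC_HCC libraries. As 3 of these were listed at 0, the rate of 1 in 20 does not apply to Fosl1. Neither gene was high in absolute terms, and the stromal marker sum of this library was 76.6, against 32.2 to 35.6 in libraries 1 to 3; its part in these values was not tested.

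The OFF difference of Jun differed between the Twist1-labelled and the MYC groups by a tested 2.49 on the log2 scale (limma adjusted p = 0.0335). Jun was between 0 and 1.78 in the 6 OFF libraries, and the difference ranged from 1.47 to 4.37 between pseudocounts of 5 and 0.1. The call was lost in 15 of 31 alternatives, among them the pseudocount of 0.1 (limma adjusted p = 0.0707). The value of 2.49 is also the difference between the OFF groups (0.78) less that between the HCC groups (-1.71). It is therefore not independent of the Jun call between the HCC groups.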

How the results depend on the processing

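The 4 calls of Jun (MYC_Twist1_HCC against MYC_HCC, each OFF group against its HCC group, and MYC_Recur against MYC_OFF), and those of Jund for each OFF group against its HCC group, held in all 31 alternatives. No called value changed sign. With no filter on low values, 2 members instead of 1 were called in MYC_Twist1_HCC against MYC_HCC and 6 instead of 3 in MYC_OFF against MYC_HCC. Scaling by trimmed mean, median of ratios or upper quartile left 1 of 3 members called in MYC_Recur against MYC_OFF. In MYC_Recur against MYC_HCC, 0 instead of 1 were called with only those groups in the fit, and 0 to 1 when single libraries were left out. For the interaction, 0 instead of 1 were called with a pseudocount of 0.1, no filter, the same 3 scalings, only the 4 groups, or without MYC_HCC libraries 4 and 5, and 0 to 1 when single libraries were left out. The causes were not tested.

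Of all calls, the share that was higher was 32.5% as deposited and 53.0% after median of ratios scaling in MYC_OFF against MYC_HCC, 28.0% and 52.4% in MYC_Twist1_OFF against MYC_Twist1_HCC, and 75.8% and 46.6% in MYC_Recur against MYC_OFF. Whether replicate numbers pair the libraries is not settled by correlations with group means removed. Those of same-numbered libraries ran from -0.171 to 0.384, and in no comparison did every library correlate best with its own number. In MYC_Twist1_OFF against MYC_Twist1_HCC, 4 of 6 libraries did, with same-numbered values of 0.014 to 0.384 and others of at most 0.143. In MYC_Twist1_OFF against MYC_OFF 4 of 6 did as well, and in MYC_Recur against MYC_OFF 0 of 6. With the replicate block, 2 members instead of 3 were called in MYC_OFF against MYC_HCC (Junb adjusted p = 0.0802) and 2 instead of 3 in MYC_Twist1_OFF against MYC_Twist1_HCC (Fosl1 adjusted p = 0.0532), with no other change of a member's call. Depth is unknown, so low values of Fos, Fosb and Fosl2 have no detection limit.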

Other observations

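Over the 19 libraries, log2 values of Junb and Jund correlated with r = 0.638, and with r = 0.689 once group means were removed. The second value pools all groups, and a single factor per library can move it. MYC_HCC library 4 had the lowest Junb (9.5) and the lowest Jund (23.88) of its group. In MYC_Twist1_OFF, however, library 2 had the highest Junb (12.82) and the lowest Jund (9.44). Jun and Jund correlated with r = 0.765 over all libraries, but with r = -0.410 without group means. Atf3 per Junb, which a single factor per library cannot move, was 0.506 to 0.533 in MYC_Twist1_OFF, 0.234 to 0.308 in MYC_Recur, 0.315 to 1.22 in MYC_OFF, 0.256 to 0.704 in MYC_Twist1_HCC and 0.247 to 1.14 in MYC_HCC. These are descriptions over libraries that share groups and, in part, a data set.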
